A study of Mus musculus with 5 samples.

Results

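The genes described here are those of the mitogen-activated protein (MAP) kinase cascade and of its feedback inhibitors, in T cells taken from the colon lamina propria of mice, the tissue just under the gut epithelium. They were chosen by symbol: every gene whose name begins with Map2k, Map3k, Map4k or Mapk, or with Dusp, Spry or Spred and a digit, leaving out Mapkap1, which belongs to another complex. The rule gave 83 of the 24417 genes with a name, of which 70 passed the filter on low counts. Bulk RNA-seq was done on 5 libraries, all from mice with the allele Foxp3DTR-GFP on one side and the allele loxp-Thy1.1-STOP-loxp-GFP, which is the reporter-null one, on the other. The 2 Treg libraries held cells with the Foxp3-DTR-GFP reporter, and the 3 reporter-null libraries held Thy1.1+ cells, which used the allele with the stop signal. Both populations carried both alleles in their genotype, and neither age, sex, time nor treatment is given. Reporter-null replicate 1 carries the numbers 1 and 4 in its description, where the other libraries carry a single number. The labels do not say that libraries came from separate animals, so the spread that p-values are judged against may be technical.

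In a MAP kinase cascade a MAP kinase kinase kinase (MAP3K) phosphorylates a MAP kinase kinase (MAP2K), which in turn phosphorylates both a threonine and a tyrosine of a MAP kinase. Its main branches end in the kinases ERK, JNK and p38, and in T cells all of them are switched on by the T cell receptor, co-stimulation and cytokines. Dual-specificity phosphatases (DUSPs) take both phosphates off again, and Sprouty and Spred proteins hold back the RAS to ERK route from above. Several of these inhibitors are themselves induced by the kinases they oppose, which makes their transcripts part of a negative feedback loop.

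Of the 70 tested genes, 2 passed the test. Dusp10, a phosphatase that acts mainly on JNK and p38, was lower in reporter-null cells, and Dusp6, a cytoplasmic phosphatase of ERK, was higher. The called share was 2.86% (1.43% in each direction), against 8.79% of all 14164 genes tested (4.07% higher and 4.72% lower), so the share called was below that of all genes in this fit. It was not with DESeq2 (17.1% of the set and 16.4% of all genes) or without reporter-null replicate 2 (16.2% and 15%). Called means an adjusted p under 0.05 in edgeR's quasi-likelihood test with Benjamini-Hochberg adjustment over all genes tested. Log2 fold changes are given as reporter-null minus Treg with their standard error (SE). The unit of levels is CPM, which puts the counts of all libraries on one scale of depth, with TMM factors. The median log2 fold change was 0.08 over the 70 genes and 0.02 over all tested genes, and 52 of the 70 (74.3%) differed by less than 0.5 on that scale, against 66.9% of all genes. In 41 of the 70 the values of the 2 groups did not overlap, 27 with reporter-null cells higher and 14 with them lower. That is 58.6%, against 40.8% over all tested genes (20.3% with reporter-null cells higher and 20.5% with them lower). The unadjusted p was under 0.05 in 21 of the 70 (30%, against 22.6%). The median level was 56.5 CPM in the set and 24.1 CPM over all tested genes, so these shares compare genes at unlike levels. In bulk RNA, fewer cells that express a gene and less RNA per cell cannot be told apart.

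**Figure D1:**
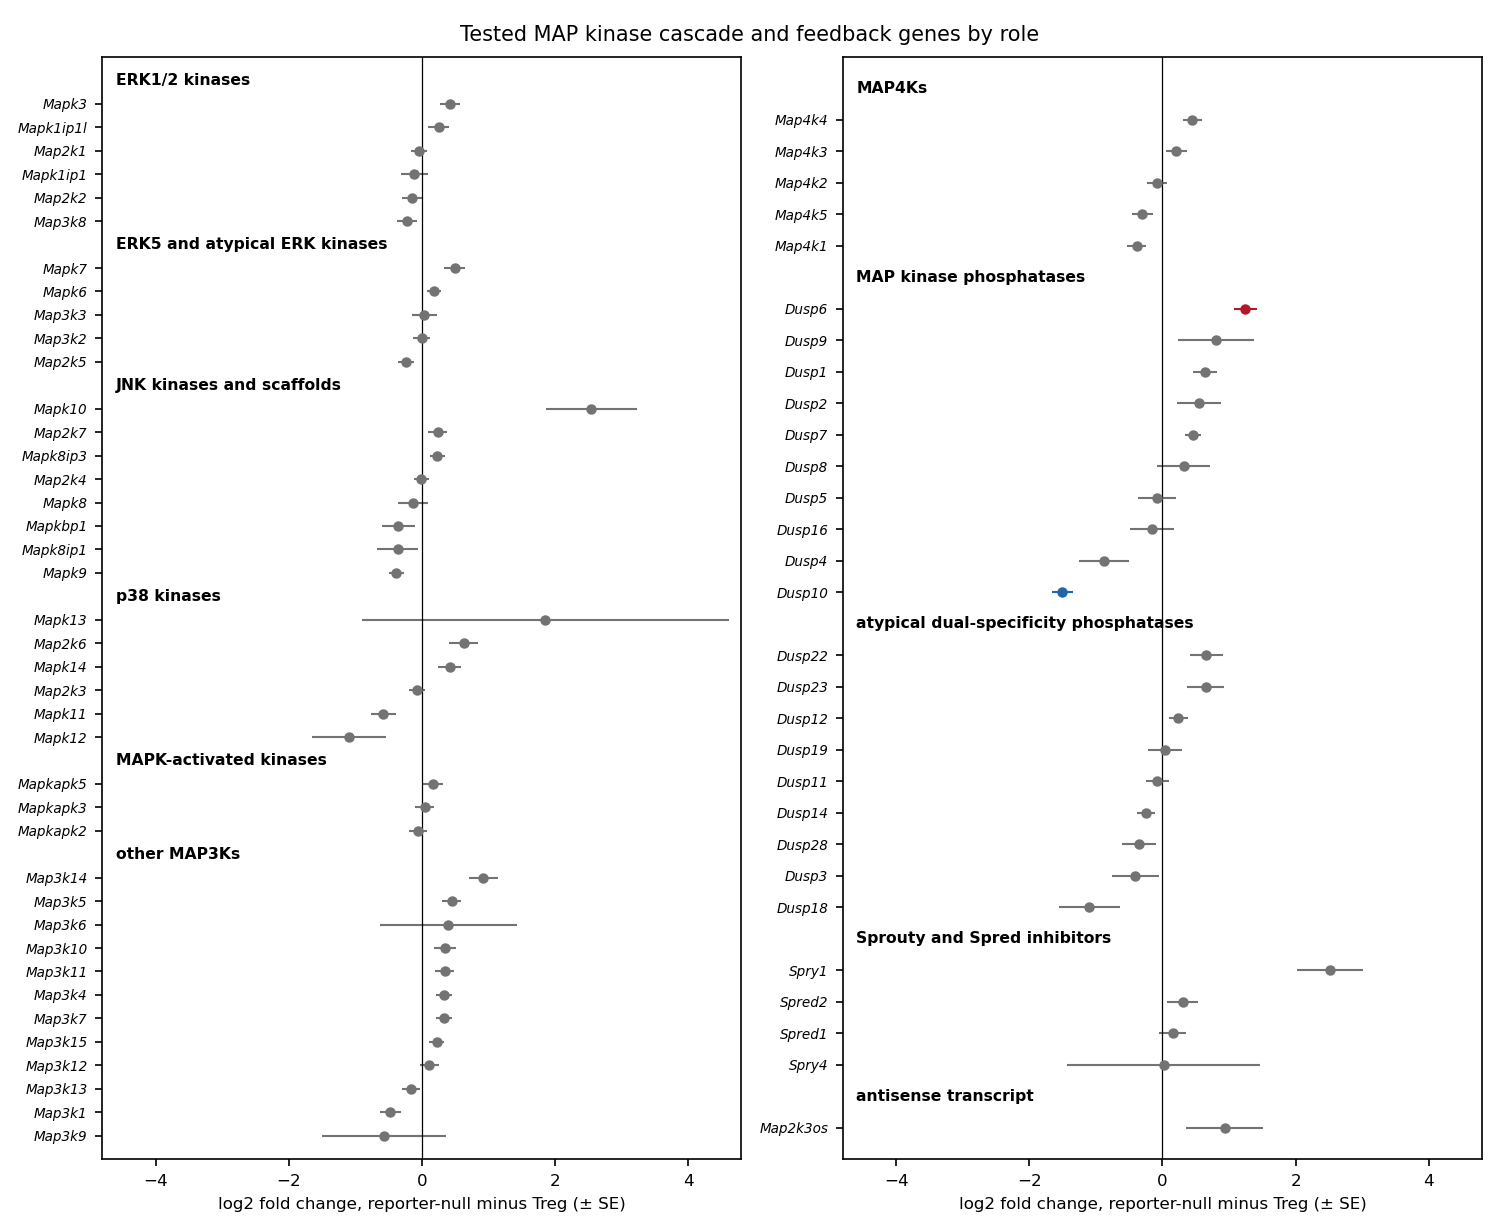
Log2 fold change (reporter-null minus Treg, bars are ± 1 SE) of the tested genes that are reported, grouped by role. Red marks a gene called higher (Dusp6), blue a gene called lower (Dusp10) and grey a gene that was not called. Most points lie within 0.5 of zero, and Mapk13 has the widest bar.

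The libraries held 17670420 to 22395169 counts. T cell markers were high in all of them (Cd3e at 1036 to 1260 CPM, Cd4 at 682 to 1555 CPM), and Foxp3 fell with the label (764 and 770.0 CPM in Treg cells, 75.7 to 81.3 CPM in reporter-null cells, adjusted p = 5.45e-05). Of 9 tested CD4 T cell markers edgeR called 1 higher in reporter-null cells, Cd4 (log2 fold change 0.99, adjusted p = 0.00796). It called 1 lower, Cd2 (-1.37, adjusted p = 0.00186). Markers of CD8, NK and gamma-delta T cells did not move as one. The gamma-delta receptor genes Trdc, Tcrg-C1 and Tcrg-C2 had no row in the counts, so these could not be looked at. Summed over the 9 markers that had a row, the levels were 33.7 and 34.5 CPM in Treg cells, against 642, 663 and 461 CPM in reporter-null cells. Most of the reporter-null sums came from 5830411N06Rik. Of the 8 tested, 4 had a log2 fold change above 0 and 4 below, with 3 called higher and none lower. The 3 called were 5830411N06Rik (7.17 and 6.89 CPM against 551, 585 and 381 CPM), Blk (2.01 and 3.75 CPM against 54.3, 36.8 and 40.8 CPM) and Klrk1 (3.09 and 0.647 CPM against 26.2, 27.3 and 26.8 CPM). Cd8a, which defines CD8 T cells, was at or under 0.542 CPM in every library, and Cd8b1 was not called (11.6 and 11.1 CPM against 5.42, 3.41 and 7.34 CPM). The NK cell markers Klrb1c (log2 fold change -0.90), Eomes (-1.20) and Ncr1 (-0.32) lay below 0 and were not called either. The part of these cells in the differences below was not tested. A pair of libraries, 1 in each group, stood apart from the other 3. Treg replicate 1 and reporter-null replicate 2 had summed levels of 376.5 and 1690.0 CPM over 14 epithelial markers, where the other 3 had 40.9 to 53.8 CPM, and a count for all 14, where the others had one for 10 to 12. The same 2 libraries had the lowest levels of the inducible heat shock gene Hspa1a, 1371 and 2047 CPM against 11238 to 13660 CPM. Their descriptions carry the same number, which is not explained. These 2 libraries also had the highest summed markers of B and plasma cells (1438 and 909 CPM against 394 to 443 CPM). The same held for macrophages and dendritic cells (81.55 and 140 CPM against 38.9 to 39.9 CPM) and for stromal and endothelial cells (128.6 and 202 CPM against 96.7 to 113 CPM). The epithelial marker Epcam was also at 34.3 CPM in Treg replicate 2. The part that RNA of these other cells and heat shock play in the results below was not tested, and results that move with these libraries are given with and without them.

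The 10 classical MAP kinase phosphatases carry a kinase-binding domain beside the catalytic one, and they held both called genes. All 10 were tested, with 1 higher, 1 lower and a median log2 fold change of 0.39. Dusp10, also known as MKP5, restrains JNK and p38 in T cells. Treg replicates 1 and 2 had 440.5 and 449 CPM of it, against 175, 171 and 125 CPM for reporter-null replicates 1, 2 and 3. The groups were far apart and the Treg libraries nearly equal. The log2 fold change was -1.50 (SE 0.164, adjusted p = 0.00297), and it was called after leaving out any one library (adjusted p from 0.000106 to 0.0438).

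Dusp6, also known as MKP3, binds ERK in the cytoplasm and is a standard readout of ERK activity. Its level was 80.7 and 106 CPM in Treg cells, against 230.2, 193 and 242 CPM for the reporter-null libraries. The lowest reporter-null library was therefore well above the highest Treg library. The log2 fold change was 1.24 (SE 0.170, adjusted p = 0.00682). The call was lost without Treg replicate 1, where the log2 fold change was 1.06. That fit holds 1 Treg library, and calls over all genes fell in it too.

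The start regions of these 2 genes are shown with that of Spry1, an ERK inhibitor with a large difference described next, because these are the feedback genes that differed most between the groups in opposite directions. Each line gives the 250 bases before the RefSeq start, 5′ to 3′, on the plus strand of GRCm38.p6. Capitals mark the CCAAT box (CCAAT) and the GC box (GGGCGG) on either strand.
Dusp6, chr10:99262981-99263230: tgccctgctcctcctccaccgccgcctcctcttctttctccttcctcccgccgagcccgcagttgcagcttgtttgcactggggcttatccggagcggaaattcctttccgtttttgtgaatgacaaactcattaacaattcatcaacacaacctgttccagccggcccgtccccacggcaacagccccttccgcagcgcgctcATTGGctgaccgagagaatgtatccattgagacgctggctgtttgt
Dusp10, chr1:184034131-184034380: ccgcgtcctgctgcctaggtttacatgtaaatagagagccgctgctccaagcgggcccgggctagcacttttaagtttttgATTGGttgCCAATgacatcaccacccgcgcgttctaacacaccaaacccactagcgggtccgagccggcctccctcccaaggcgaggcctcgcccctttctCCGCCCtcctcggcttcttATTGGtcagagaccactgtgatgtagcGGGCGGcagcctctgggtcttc
Spry1, chr3:37639697-37639946: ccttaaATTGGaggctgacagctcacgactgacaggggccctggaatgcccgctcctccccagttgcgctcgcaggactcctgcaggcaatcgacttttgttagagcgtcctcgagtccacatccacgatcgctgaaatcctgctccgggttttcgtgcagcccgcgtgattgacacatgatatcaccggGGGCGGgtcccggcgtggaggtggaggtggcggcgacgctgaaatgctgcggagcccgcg
Dusp6 held 1 CCAAT box, 46 bases before its start, and Dusp10 held 3 CCAAT boxes and 2 GC boxes. None of the 3 windows held the letters of an AP-1 site (TGANTCA), a forkhead site (TGTTTAC), an ETS site (CCGGAAG) or an NFAT site (GGAAAA). Of the 83 genes 63 are in the RefSeq table, with 78 windows. The GC box was in 59.0% of those windows and in 32.7% of all 32851 windows of the same length, and the CCAAT box in 33.3% and 33.8%. The AP-1 letters were in 5.1% of the windows of these genes and 6.7% of all, the ETS letters in 6.4% and 6.9%, the NFAT letters in 17.9% and 20.4%, and the forkhead letters in 0 of 78 and 3.2% of all. These are matches of letters near one start of each transcript and were not tested against binding.

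The other phosphatases induced by MAP kinases in the nucleus did not move as one. Dusp1, an early response gene whose product acts on p38, JNK and ERK, was the most heavily counted of all 83 genes, at 3039 and 4116 CPM in Treg cells, against 6046, 5151 and 5504 CPM in reporter-null cells. It is also 1 of 13 genes listed here as a response to tissue dissociation, with Fos, Fosb, Egr1 and heat shock genes. Their summed level was lowest in Treg replicate 1 (18660 CPM, against 29400 to 61920 CPM in the other libraries), and the part of cell handling was not tested. The groups of Dusp1 did not overlap, but edgeR did not call it (log2 fold change 0.64, SE 0.185, adjusted p = 0.0905). DESeq2 (adjusted p = 0.00108) and limma-voom (0.0486) did. Leaving out reporter-null replicate 2 gave an adjusted p of 0.0236, and leaving out Treg replicate 1 gave a log2 fold change of 0.44 with an adjusted p of 0.466. Dusp4, which encodes the nuclear phosphatase MKP2, was 332 and 277 CPM in Treg cells, against 172, 229.8 and 95.4 CPM in reporter-null cells. It was thus lower in every reporter-null library, though their values were spread over a more than 2-fold range (log2 fold change -0.88, SE 0.374, adjusted p = 0.262). Dusp4 was called without reporter-null replicate 2 (-1.20, adjusted p = 0.0421) and with Treg replicate 1 left out as well (-1.05, adjusted p = 1.89e-05).

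Dusp2, or PAC-1, a nuclear phosphatase first found in activated T cells, was 137 and 187 CPM in Treg cells. In reporter-null cells it was 284, 146 and 279.97 CPM in replicates 1, 2 and 3, so that replicate 2 fell within the Treg range. It was not called (0.55, SE 0.337, adjusted p = 0.426), and it passed without that library (0.79, adjusted p = 0.00687). Dusp5, which is specific for ERK in the nucleus, overlapped, with 649 and 506 CPM in Treg cells against 549, 719 and 367 CPM (-0.08, SE 0.290, adjusted p = 0.909).

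Among the remaining members of the class, Dusp7, the closest relative of Dusp6, was 49.0 and 51.5 CPM in Treg cells, against 74.8, 65.7 and 66.1 CPM in reporter-null cells. The groups were separate, with a log2 fold change of 0.45 (SE 0.118) and an adjusted p of 0.0654 in edgeR, and DESeq2 called it (0.00567). Dusp8 and Dusp16, which act on JNK and p38, both had reporter-null replicate 2 at an extreme. Dusp8 was 56.4 CPM there and 22.7 to 31.4 CPM in the other 4 libraries, and Dusp16 was 34.7 CPM there and 53.6 to 76.8 CPM in the others. Neither was called (adjusted p = 0.725 and 0.838). Dusp9 was low throughout, at 0.814 to 2.21 CPM.

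**Figure D2:**
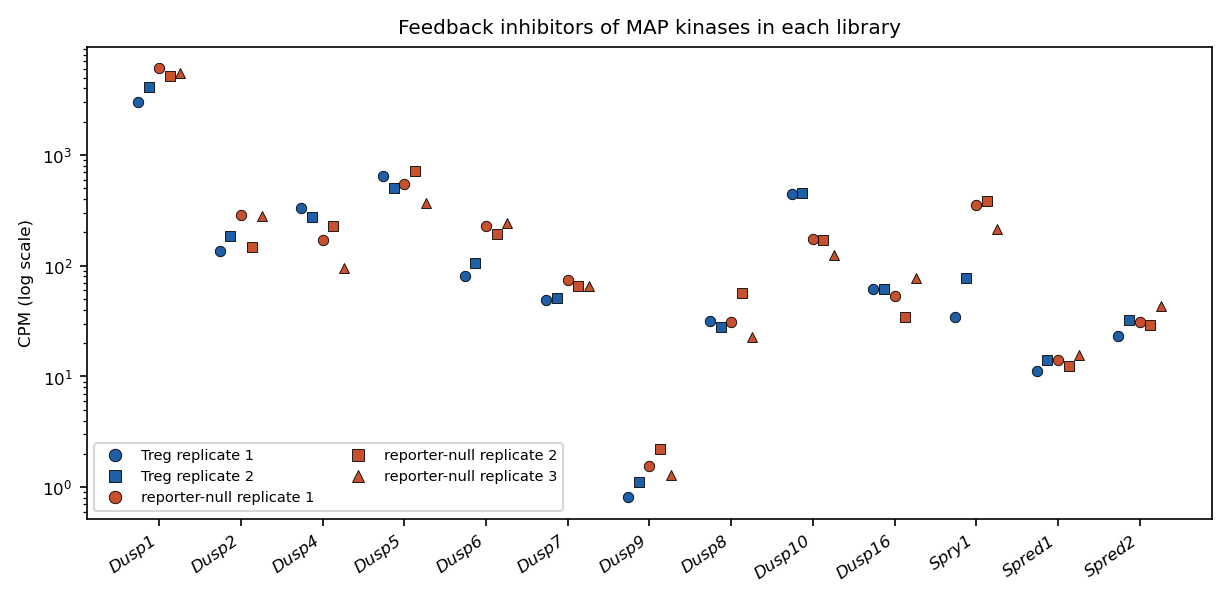
CPM on a log axis of the 10 MAP kinase phosphatases and of Spry1, Spred1 and Spred2 in each library, blue for Treg and orange for reporter-null, with a marker shape per replicate number. The blue and orange points of Dusp6, Dusp10 and Spry1 are separate, and those of Dusp5 and Dusp16 are mixed.

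Sprouty and Spred proteins block RAS or RAF activation below receptors. Spry1, which is induced after T cell receptor stimulation, had one of the largest differences of the whole set. Its level was 34.3 and 77.1 CPM in Treg replicates 1 and 2, against 356, 388 and 213 CPM for reporter-null replicates 1, 2 and 3. Every reporter-null library was more than 2-fold above the higher Treg library, but the Treg libraries also differed by more than 2-fold. The log2 fold change was 2.52 (SE 0.493), and the adjusted p of 0.0518 lay just past the threshold. It ran from 4.22e-13 to 0.39 over 15 alternatives, of which 7 called it, and was 0.0480 without Treg replicate 2 and 0.112 without Treg replicate 1. Spred1 (0.15, SE 0.204) and Spred2 (0.30, SE 0.235), which recruit the RAS inhibitor neurofibromin, overlapped between the groups. Spry4 was at or under 0.672 CPM in every library, Spry2 at or under 0.72 CPM, and Spry3 had no count.

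At the top of the cascade, MAP4Ks link receptors to the MAP3Ks. None of the 5 was called by edgeR, 2 had an unadjusted p under 0.05, and DESeq2 called Map4k4 alone. Their log2 fold changes ran from -0.39 to 0.45. Map4k1, or HPK1, which dampens T cell receptor signalling, was 241 and 209 CPM in Treg cells, against 186, 182 and 147 CPM in reporter-null cells. Its kin Map4k4 went the other way, with 59.2 and 63.7 CPM against 85.9, 72.1 and 92.9 CPM. Both had groups that did not overlap (adjusted p = 0.165 and 0.115), and Map4k4 passed without reporter-null replicate 2 (adjusted p = 0.0251).

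The largest difference among the well-counted MAP3Ks was in Map3k14, which encodes NIK, the kinase that starts the alternative NF-kappaB pathway. Treg cells had 78.6 and 66.7 CPM, and reporter-null cells 119, 177 and 116 CPM. All reporter-null libraries were higher, with replicate 2 furthest from the Treg values. The log2 fold change was 0.92 (SE 0.218, adjusted p = 0.0503), a value just past the threshold. It was 0.68 without reporter-null replicate 2 and then called (adjusted p = 0.00825), and 0.82 with Treg replicate 1 left out as well (adjusted p = 0.00192). Over 15 alternatives the adjusted p ran from 0.0013 to 0.266 and 6 called it.

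Of the 12 tested genes in the group of other MAP3Ks, 9 had a log2 fold change above 0 and 7 were higher in every reporter-null library than in either Treg library, a pattern that 20.3% of all tested genes had. With edgeR none was called and 6 had an unadjusted p under 0.05 (22.6% of all tested genes did), while DESeq2 called 2, Map3k5 and Map3k14. Map3k5, or ASK1, a kinase activated by oxidative stress, was 130.4 and 153 CPM in Treg cells, against 189, 172 and 217 CPM in the reporter-null libraries (0.45, SE 0.144, adjusted p = 0.119). Map3k7, or TAK1, which joins the T cell receptor and innate receptors to NF-kappaB and JNK, was 42.9 and 50.2 CPM against 60.0, 60.9 and 55.2 CPM (0.33, SE 0.125, adjusted p = 0.172). Map3k4 (0.34), Map3k10 (0.35), Map3k11 (0.34) and Map3k15 (0.22) had log2 fold changes near that of Map3k7 or below it and all reporter-null libraries higher, with adjusted p from 0.149 to 0.31. Map3k1, which encodes MEKK1, was the one well-counted gene of the group with all reporter-null libraries lower, at 116 and 95.7 CPM against 63.9, 83.4 and 80.8 CPM (-0.47, SE 0.157, adjusted p = 0.128). Without reporter-null replicate 2, Map3k5 (adjusted p = 0.0364) and Map3k1 (0.0431) passed.

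The kinases of the ERK branch described here were not called by edgeR. Map2k1 and Map2k2, which encode MEK1 and MEK2, overlapped between the groups (-0.04, SE 0.119, and -0.15, SE 0.145). Mapk3, which encodes ERK1, was 52.9 and 53.3 CPM in Treg cells, against 71.5, 81.5 and 60.0 CPM in the reporter-null libraries. It was higher in each of them and not called (0.42, SE 0.152, adjusted p = 0.159). Map3k8, or TPL2, the MAP3K that feeds ERK downstream of TNF and Toll-like receptors, overlapped (-0.22, SE 0.147, adjusted p = 0.449). In the ERK5 branch Mapk7, the ERK5 gene, was 23.7 and 29.7 CPM against 38.7, 34.7 and 39.6 CPM (0.49, SE 0.156, adjusted p = 0.115 in edgeR), and DESeq2 called it (0.0401).

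JNK genes showed one large difference at a low level. Mapk10, or JNK3, best known from neurons, had 6 and 18 counts in the Treg libraries and 96, 44 and 67 in reporter-null replicates 1, 2 and 3, which is 0.326 and 0.832 CPM against 5.20, 2.11 and 2.98 CPM. All reporter-null libraries were higher (2.55, SE 0.688, adjusted p = 0.0741). The estimate was 3.38 without Treg replicate 2 and 2.04 without Treg replicate 1, neither of them called, and 2.78 without reporter-null replicate 2, where it was called (adjusted p = 0.0103). The JNK genes that T cells use in the main behaved otherwise. Mapk9, or JNK2, was 95.1 and 97.9 CPM in Treg cells, against 76.5, 76.1 and 69.5 CPM in the reporter-null libraries (-0.38, SE 0.108, adjusted p = 0.0837 in edgeR), and DESeq2 called it lower (0.0105). Mapk8, or JNK1, overlapped (-0.13, SE 0.221), as did Map2k4, an activator of both (-0.01, SE 0.113). Map2k7, which also activates them, was 71.0 and 71.6 CPM in Treg cells, against 79.5, 96.1 and 76.1 CPM in the reporter-null libraries. It was higher in each of these and not called (0.24, SE 0.136, adjusted p = 0.380).

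Of the 4 p38 genes, Mapk14, which encodes the widely expressed p38-alpha, was 107 and 138 CPM in Treg cells, against 165, 186 and 138 CPM in the reporter-null libraries (0.42, SE 0.174, adjusted p = 0.218). The lowest reporter-null value, 138.2 CPM in replicate 3, was barely above the highest Treg value, 137.6 CPM. Mapk11, or p38-beta, was lower in every reporter-null library, at 27.1 and 33.8 CPM against 24.0, 18.2 and 18.9 CPM (-0.58, SE 0.188, adjusted p = 0.12). Map2k6, which activates p38, was 6.62 and 7.03 CPM against 10.1, 10.4 and 11.3 CPM (0.63, SE 0.218, adjusted p = 0.141 in edgeR and 0.0494 in DESeq2), while Map2k3, its partner in that task, overlapped. The p38 targets Mapkapk2 (-0.06, SE 0.134) and Mapkapk3 (0.04, SE 0.138), kinases that control cytokine mRNA stability, overlapped too.

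Mapk13, or p38-delta, was highest in the 2 libraries that stood apart. It was 5.48 CPM in Treg replicate 1 and 29.0 CPM in reporter-null replicate 2, and 0.0925, 0.704 and 0.400 CPM in Treg replicate 2 and reporter-null replicates 1 and 3. The summed epithelial markers were high in the same 2 libraries, with Krt8 at 86.1 and 426 CPM there and 1.29 to 2.76 CPM in the others. Its log2 fold change was 1.85 (SE 2.755, adjusted p = 0.78), and it was -2.35 with reporter-null replicate 2 left out and 6.67 with Treg replicate 1 left out. Without both of those libraries it was 2.50, from 2, 13 and 9 counts, and not called (adjusted p = 0.333). Between libraries with the same number in the description, it was higher in the reporter-null one both times, and a fit with that number as a block called it higher (2.33, adjusted p = 0.00495).

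**Figure D3:**
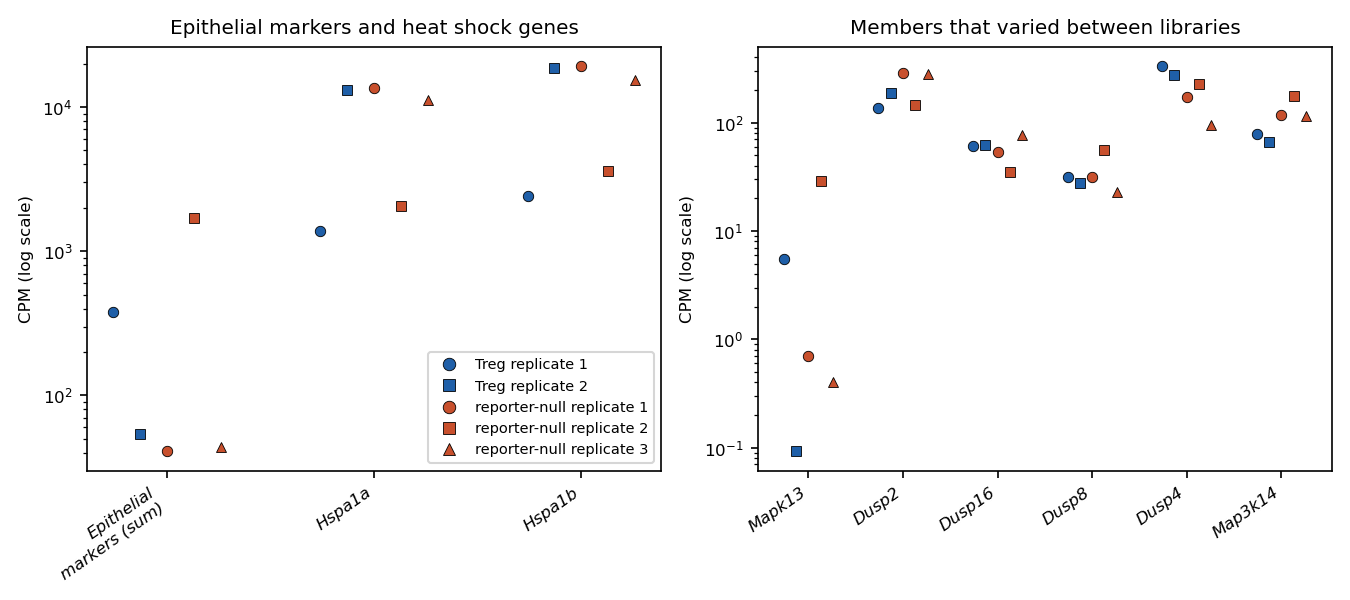
CPM on a log axis in each library (blue Treg, orange reporter-null, a marker shape per replicate number) of the summed epithelial markers and 2 heat shock genes, left, and of 6 genes of the MAP kinase set picked for their spread between libraries, right. Treg replicate 1 and reporter-null replicate 2 are high for the epithelial markers and Mapk13 and low for Hspa1a and Hspa1b.

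Atypical dual-specificity phosphatases lack the kinase-binding domain, and several act on other substrates. Of their 14 genes 9 were tested and none was called by edgeR or DESeq2, with 1 at an unadjusted p under 0.05 in edgeR. Dusp22, which dephosphorylates the T cell kinase LCK, was 7.93 and 6.98 CPM in Treg cells, against 12.9, 9.36 and 13.1 CPM in the reporter-null libraries (0.66, SE 0.248, adjusted p = 0.173). Dusp14, a further inhibitor of T cell receptor signalling, was 97.3 and 122 CPM against 93.8, 91.2 and 92.4 CPM (-0.25, SE 0.128, adjusted p = 0.324). Dusp18 was lower in reporter-null cells, at 9.61 and 5.27 CPM against 3.14, 5.09 and 2.18 CPM (-1.10, SE 0.462, adjusted p = 0.221), and passed without reporter-null replicate 2 (-1.50, adjusted p = 0.0331). Map2k3os, a noncoding transcript named for lying opposite Map2k3, was at or under 2.18 CPM in every library. The strand setting of the counts is not given, so its reads cannot be told apart from those of Map2k3.

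The 13 genes that did not pass the filter on low counts were Dusp13, Dusp15, Dusp21, Dusp26, Dusp27, Map3k19, Map3k7cl, Mapk15, Mapk4, Mapk8ip2, Spred3, Spry2 and Spry3. Of these 4 (Dusp15, Dusp21, Dusp26 and Spry3) had no count in any library, and the other 9 were under 1 CPM in every library.

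Within the reporter-null group, replicate 1 lay between the other 2 most of the time. It was the highest of the 3 in 14 of the 70 genes (20%) and the lowest in 8 (11.4%). Over all tested genes it was the highest in 25.1% and the lowest in 23.6%. Replicate 2 was the highest of the 3 in 28 of the 70 genes and the lowest in 32, and replicate 3 was the highest in 28 and the lowest in 30. Over all tested genes replicate 2 was the highest in 37% and the lowest in 39.6%, against 40% and 45.7% in this set. For replicate 3 these shares were 37.8% and 36.9% over all tested genes, against 40% and 42.9% in this set. Leaving out replicate 2 raised the number of called genes from 2 to 11, with 7 higher and 4 lower. The gained genes were Dusp1, Dusp2, Dusp4, Dusp18, Map3k1, Map3k5, Map3k14, Map4k4 and Mapk10, and Dusp6 (1.33) and Dusp10 (-1.58) remained called. Leaving out Treg replicate 1 left Dusp10 alone. With both libraries out, the fit has 1 Treg library and assumes that it varies like the others. Its log2 fold changes were 1.15 for Dusp6 and -1.58 for Dusp10. Over all genes tested the calls without reporter-null replicate 2 rose likewise, to 2035 (15%, against 16.2% of this set). They fell when either Treg library alone was left out, so calls lost in those fits were not confined to the genes named here.

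Genes around the cascade were described from lists of pathway components, whose counts stand beside 4.07% called higher and 4.72% called lower over all genes tested (8.79% together). The share of all genes called was 16.4% with DESeq2 and 15% without reporter-null replicate 2. Fits without Treg replicate 1 or without Treg replicate 2 hold 1 Treg library, and calls over all genes fell in both. In the RAS input list edgeR called 3 of 24 tested genes lower and none higher, with a median log2 fold change of 0.12 and 6 at an unadjusted p under 0.05. The 3 called lower by edgeR were Rras2, Ksr2 and Grb2, and DESeq2 in addition called Mras and Rasgrp1 higher. Rras2, a RAS-related GTPase that binds the T cell receptor, was 48.5 and 57.6 CPM in Treg cells, against 8.94, 12.96 and 8.37 CPM in the reporter-null libraries (log2 fold change -2.39, adjusted p = 0.00162). The scaffold gene Ksr2 was at a low level (-2.44, adjusted p = 0.0400). Grb2 encodes the adaptor that brings SOS to receptors (-0.58, adjusted p = 0.0209). The RAF and SOS genes were not called. Rras2 was called after leaving out any one library. Grb2 lost its call without Treg replicate 1 (adjusted p = 0.146), Treg replicate 2 (0.143) or reporter-null replicate 1 (0.125), and Ksr2 without those (0.286, 0.122 and 0.124) or reporter-null replicate 3 (0.0889). Mras was called higher without Treg replicate 1, also with reporter-null replicate 2 left out too, and without reporter-null replicate 2 alone Rasgrp1 was called higher.

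RAS GTPase-activating proteins, which switch RAS off, had 4 of 9 tested genes called by edgeR, 2 higher and 2 lower. DESeq2 called 3 higher and 2 lower, and the fit without reporter-null replicate 2 called 2 higher and 3 lower. Nf1, which encodes the neurofibromin that Spred proteins recruit, was 102 and 91.0 CPM in Treg cells, against 173, 163 and 188 CPM in the reporter-null libraries (0.85, SE 0.123, adjusted p = 0.00818). Rasa4 rose as well (1.91, adjusted p = 0.00799), whereas Rasa2 (-0.90, adjusted p = 0.0173) and Rasal1 (-2.62, adjusted p = 0.00416) fell. Rasal1 was 11.1 and 11.8 CPM in Treg cells and 1.41 to 2.14 CPM in reporter-null cells. All 4 calls were lost without Treg replicate 1 (adjusted p from 0.0505 for Rasal1 to 0.124 for Rasa2) and without Treg replicate 2 (from 0.0533 for Rasal1 to 0.116 for Rasa2). With Treg replicate 1 and reporter-null replicate 2 both left out all 4 were called (from 1.34e-10 for Rasal1 to 0.000893 for Rasa2). Nf1 (0.0514) and Rasa2 (0.0927) also lost theirs without reporter-null replicate 1.

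Among 22 tested scaffolds and adaptors edgeR called 1 lower, Cnksr3 (-3.10, adjusted p = 0.0117), and 1 higher, Taok2, a kinase upstream of p38 (0.60, adjusted p = 0.0203). With DESeq2 5 were called higher and 3 lower, and without reporter-null replicate 2 there were 2 higher and 2 lower. Of 11 other phosphatases that act on these modules edgeR called 2 lower and none higher, with 3 at an unadjusted p under 0.05. Ptpn5, a tyrosine phosphatase of ERK and p38, was 10.6 and 14.2 CPM in Treg cells, against 1.41, 0.624 and 1.25 CPM in the reporter-null libraries (-3.50, SE 0.420, adjusted p = 0.00428), and Ppm1b fell too (-0.62, adjusted p = 0.0393). Ptpn7, a tyrosine phosphatase of ERK and p38 in blood cells, was 269 and 379.8 CPM against 638, 456 and 572 CPM (0.78, SE 0.205, adjusted p = 0.0698). DESeq2 called it higher (0.00220), as did the fits without reporter-null replicate 2 (0.00486), without Treg replicate 1 as well (0.0227) and with a block by the number in the description (0.0277). The call of Ptpn5 was lost without Treg replicate 2 (adjusted p = 0.0569). Those of Cnksr3, Taok2 and Ppm1b were lost without Treg replicate 1 (0.0695, 0.116 and 0.0959) or Treg replicate 2 (0.106, 0.122 and 0.236). Leaving out reporter-null replicate 1 ended those of Taok2 (0.114) and Ppm1b (0.173), and leaving out replicate 3 that of Ppm1b (0.0719).

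Early response genes and ETS factors downstream of ERK had 6 of 26 tested genes called higher by edgeR and none lower, with a median log2 fold change of 0.49 and 10 at an unadjusted p under 0.05. DESeq2 called 9 higher and 1 lower, and the fit without reporter-null replicate 2 called 9 higher and none lower. The 4 with the smallest p in edgeR were Elk3 (0.73, adjusted p = 0.00927), Ier3 (1.91, adjusted p = 0.0156), Fosb (1.06, adjusted p = 0.0184) and Btg2 (0.78, adjusted p = 0.0347). Ier3 was 4.67 and 7.12 CPM in Treg cells, against 27.2, 15.4 and 24.1 CPM in reporter-null cells. None of these 4 was called without Treg replicate 1 (adjusted p from 0.115 for Elk3 to 0.239 for Btg2), without Treg replicate 2 (from 0.0673 for Btg2 to 0.0933 for Fosb) or without reporter-null replicate 1 (from 0.0655 for Elk3 to 0.119 for Btg2), and Btg2 was not without reporter-null replicate 3 (0.0628). Nr4a2, an early response gene for a nuclear receptor, had the largest fold of the list and lay on the other side, at 77.6 and 109 CPM in Treg cells against 24.0, 17.6 and 7.92 CPM in the reporter-null libraries (-2.50, SE 0.494, adjusted p = 0.0550). It was called lower by DESeq2 (2.51e-07) and limma-voom (0.0169), with a filter on CPM (0.0498), with thinned counts (0.0434), without reporter-null replicate 3 (0.00989) and with the block by the number in the description (0.0321). Myc was called lower with that block and with Treg replicate 1 and reporter-null replicate 2 both left out. Fos and Egr1, the classical early genes, were not called (adjusted p = 0.267 and 0.381), but Fos was without reporter-null replicate 2 and Egr1 without Treg replicate 2. Both had their lowest value in Treg replicate 1, at 2072 CPM for Fos and 213 CPM for Egr1, where the heat shock genes were low as well, and the part of cell handling was not tested. Phlda1 ran from 167 to 653 CPM with the 2 lowest values in Treg replicate 1 and reporter-null replicate 2.

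The list of p38 and JNK substrates and stress genes had 3 of 25 called higher by edgeR and 2 lower. Without reporter-null replicate 2 there were 3 higher and 3 lower. Gadd45b, whose product binds and activates the MAP3K encoded by Map3k4, was 620.2 and 715 CPM in Treg cells, against 1752, 1569 and 1522 CPM in the reporter-null libraries (1.27, SE 0.142, adjusted p = 0.00321). Its relative Gadd45a, which also blocks the T cell receptor route to p38, went the other way, at 50.3 and 55.8 CPM against 27.3, 24.3 and 29.1 CPM (-0.98, SE 0.135, adjusted p = 0.00682). Atf6 (0.73, adjusted p = 0.0223) and Rps6ka5, which encodes the kinase MSK1 downstream of ERK and p38 (0.77, adjusted p = 0.0268), were higher. The call of Gadd45b was lost without Treg replicate 1 (adjusted p = 0.0572), and that of Gadd45a without Treg replicate 1 (0.0557) or Treg replicate 2 (0.0763). Atf6 and Rps6ka5 were not called without Treg replicate 1 (0.194 and 0.199), Treg replicate 2 (0.092 and 0.0892) or reporter-null replicate 1 (0.082 and 0.117), and Atf6 was not with Treg replicate 1 and reporter-null replicate 2 both left out (0.0728). Of the genes named from the 6 lists as called, the block by the number in the description ended the calls of Grb2 (adjusted p = 0.0747), Taok2 (0.0685) and Ppm1b (0.0745), and the block by title number ended all. The lists were not tested against each other or against the rest of the genes.

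**Figure D4:**
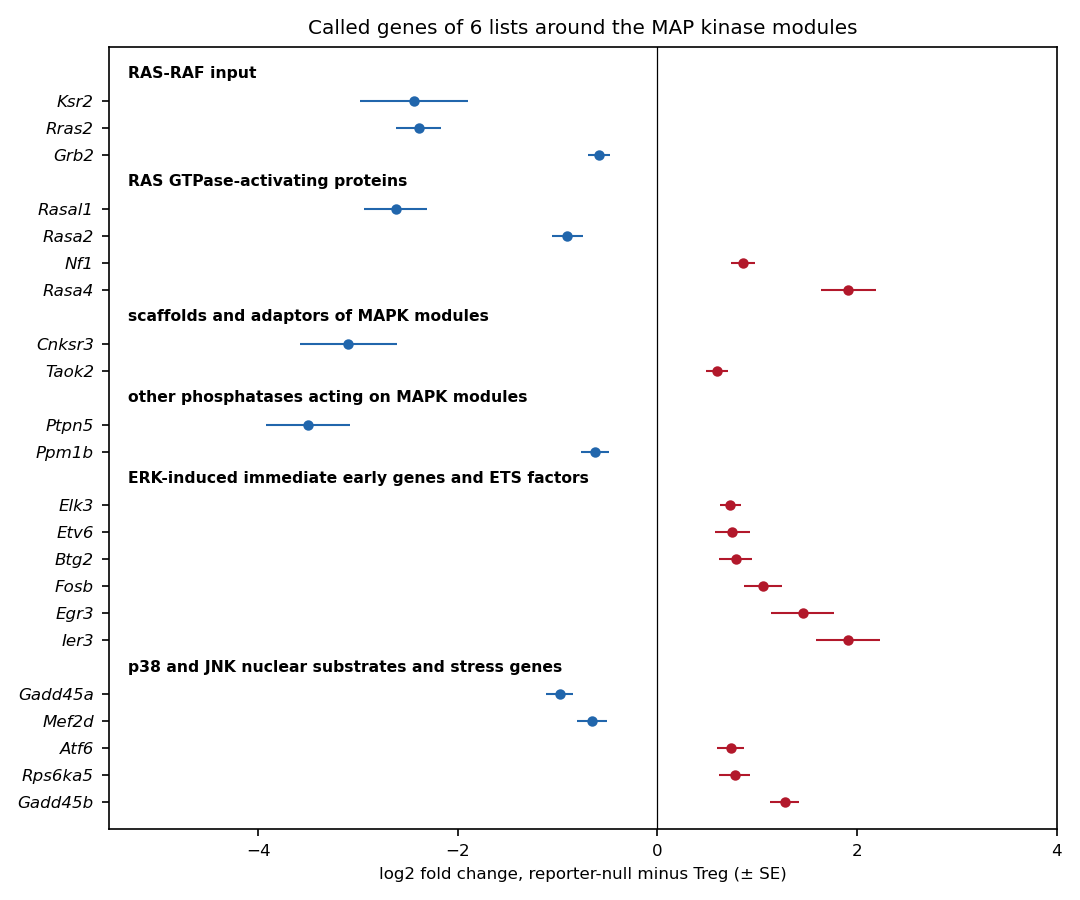
Log2 fold change (reporter-null minus Treg, bars are ± 1 SE) of the called genes of 6 lists around the MAP kinase modules, red higher and blue lower. The 6 called early response genes and ETS factors all lie above zero, and the GTPase-activating proteins lie on both sides.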

How the data were processed

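RNA-seq of 5 libraries was analysed, grouped by the sample titles. Per the labels' protocols, polyadenylated RNA was amplified with SMART-Seq v4 and libraries were sequenced as read pairs. The authors deposited raw counts per gene symbol in one table. The submitters' processing notes name DESeq alone, without a version or role. Not given in the sources used here are the aligner, the build, the strand setting and the handling of multi-mapped reads. The 4 rows named NA (at most 0.00492% of counts) were left out. No molecular identifiers are named, so copies made by amplification count as separate reads, and counting error is a lower limit on the noise of low genes.

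Counts were analysed in R 4.3.3 with edgeR 4.0.16: filterByExpr (minimum count 10, minimum total 15), TMM factors and the robust quasi-likelihood F test of reporter-null against Treg, with Benjamini-Hochberg adjustment over 14164 genes and a threshold of 0.05. The SE was taken from the log2 fold change and the F statistic. No replicates agreed within sampling noise. The fit was also run on simulated counts drawn independently for each library. That run does not bear on patterns shared between libraries.

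Alternatives were other scaling factors, DESeq2 1.42.0, limma-voom (limma 3.58.1), other filters, thinned counts, an adjusted p under 0.01, each library left out and the replicate number as a block. Chosen after seeing the data were leaving out Treg replicate 1 with reporter-null replicate 2, a block by the number in the description, and the CCAAT and GC boxes.

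The genes and lists were chosen with earlier results of these data known. Named were all called genes of the set, a fixed group of central kinases, phosphatases and Sprouty genes, genes whose call changed under an alternative, up to 4 called genes per pathway list with the smallest p, and genes below the filter. Further genes were named after their values were seen, to describe a group. Promoter windows came from the RefSeq table of GRCm38.p6, matched by symbol. One gene of the set and one of a pathway list are counted in the totals and are otherwise not reported here.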

Additional observations from a re-analysis of the deposited data

How the results depend on the processing

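The direction of Dusp6 and Dusp10 held under all 15 alternative fits, with log2 fold changes of 1.06 to 1.46 and -1.61 to -1.36. The count of called genes in the set, 1 higher and 1 lower, was small and moved with the settings. Higher calls were 2 with upper quartile factors, with no filter on low counts, with a filter on CPM and with thinned counts, 4 with limma-voom and 10 with DESeq2, which also made 2 lower calls. Leaving out one library gave 0 to 7 higher and 1 to 4 lower calls. With Treg replicate 1 and reporter-null replicate 2 both left out there were 5 higher and 3 lower. Over all genes, 577 were higher and 668 lower. These counts were 1200 and 1123 with DESeq2, 208 and 281 at an adjusted p under 0.01, 944 and 1208 without the 2 libraries, and 146 to 926 and 192 to 1109 with one library left out. The title numbers 1 and 2 are shared by both groups, but the labels do not say that they mark a pairing. Deviations of same-numbered libraries from their group means correlated at -0.508 and -0.562 across genes. For libraries with the same number in the description the correlations were 0.562 (Treg replicate 1, reporter-null replicate 2) and 0.447 (Treg replicate 2, reporter-null replicate 3). With 2 Treg libraries the deviation of one is always the negative of the other. The signs of these correlations are therefore tied, and they cannot settle which number, if any, marks a pairing. With the replicate block by title number 0 genes of the set were called in either direction, with 12 higher and 12 lower over all genes, and Dusp10 (adjusted p = 0.0642) and Dusp6 (0.127) lost their calls. With the block by the number in the description there were 3 higher and 2 lower in the set (Dusp6, Map3k14 and Mapk13, and Dusp10 and Dusp4), with 719 higher and 680 lower over all genes. Sign changes were seen in 12 fits of named genes, all of genes that were called in neither fit: Map2k1, Mapk8, Dusp5, Spry4 and Mapk13. The cause of these shifts was not tested. Genes at under 1 CPM rest on few reads, so a gene at that level that was not called may still differ.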
